A study of Zea mays with 6 samples.

Results

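Protease inhibitor genes of the maize kernel were taken by their descriptions, as the genes described as a trypsin, chymotrypsin, protease or proteinase inhibitor, a cystatin, a Bowman-Birk inhibitor, a Hageman factor inhibitor or a serpin. The rule was met by 60 of the 39179 genes deposited. None of the 60 carried the nutrient reservoir term that the rule leaves out. The RNA came from developing endosperm at 20 days after pollination. It was sequenced for nacRNAi, a transgenic line (Ni4) of the inbred B73 with an RNA interference construct against NAC genes, with 3 libraries, and for non-transgenic wild type (B73), also with 3 libraries. All nacRNAi libraries come from the single line Ni4, and neither the promoter of the construct nor the NAC genes it was built against are given in the sources used here. The labels do not state whether libraries within a line are from different plants, so p-values measure the spread between these libraries, which may be technical.

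Protease inhibitors are small proteins that block the active site of enzymes that cut other proteins. Cystatins act on papain-like cysteine proteases, serpins trap serine proteases by a change of shape, and the Bowman-Birk, Kunitz, potato inhibitor I and cereal trypsin inhibitor families act on trypsin-, chymotrypsin- or subtilisin-like serine proteases. In cereal grains they are known as part of the defence of the stored protein against insects and microbes, and some are known to restrain the seed's own proteases.

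By their descriptions the 60 genes were 22 cystatins, 15 Bowman-Birk genes, 10 potato inhibitor I genes, 4 serpins, 1 Kunitz gene and 1 Hageman factor inhibitor gene, which made 53 genes of inhibitor families. The potato inhibitor I class took the genes that no other class matched, and none of their descriptions names that family. Most are described as chymotrypsin or subtilisin-chymotrypsin inhibitors. The other 7 matched by words alone. Of these, 3 are described as related to the heavy chain of inter-alpha-trypsin inhibitor, a serum protein of vertebrates, 2 as a proteinase inhibitor propeptide, the stretch that keeps a subtilisin-like protease inactive until it is cut off, and 2 as of the protease inhibitor, seed storage and lipid transfer family. Enough reads for a test were found for 36 of the 60. The 24 others comprised 10 with no read in any library and 14 with at most 29 counts in any library, and 3 counts, the limit that a count of 0 allows, were 0.0362 to 0.0625 CPM, counts scaled to library size, in these libraries.

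Library totals were 59084750 to 69670876 counts in nacRNAi and 55812999 to 64603196 in wild type. CPM in the text are scaled by TMM, which sets the median gene of the lines at a log2 fold change of 0.00. With library totals in its place the median gene stood at 0.52. Bulk RNA cannot tell fewer cells of a type from less RNA per cell. Silencing was checked on Zm00001d008403, described as Arabidopsis NAC domain containing protein 87, and Zm00001d040189, described as no-apical-meristem-related protein1. They were taken as targets from what is known of the study. Zm00001d008403 stood at 238, 227 and 222 CPM in nacRNAi against 1337, 1335 and 1055 CPM in wild type. Zm00001d040189 had 248, 300 and 284 CPM in nacRNAi and 309, 359 and 272 CPM in wild type, and did not pass (-0.18, edgeR adjusted p = 0.245). On the other scales Zm00001d040189 was higher in nacRNAi, by 0.35 with library totals (edgeR adjusted p = 0.0168) and, by limma, by 0.54 on log2(FPKM + 1) (adjusted p = 0.00348). Genes of the starchy endosperm, the zeins, were all present (18 of 18 tested) and took 22.0% to 22.8% of the counts in nacRNAi and 35.4% to 37.2% in wild type.

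Inhibitor genes that changed were mostly lower in nacRNAi. Of the 36 tested, 17 fell, 7 rose and 12 did not pass (quasi-likelihood test of edgeR, with p adjusted over all genes by Benjamini-Hochberg and a threshold of 0.05). The 24 changed genes were 66.7% of those tested, while 47.3% of all 22259 tested genes changed. Lower genes made up 47.2% of the inhibitor genes and 24.0% of all genes, and higher genes 19.4% and 23.2%. With a minimum change of 2-fold 14 inhibitor genes passed, 5 higher and 9 lower, where 17.6% of all genes did, 8.70% higher and 8.94% lower. The median log2 fold change was -0.32 for the inhibitor genes and 0.00 for all genes. The lines' libraries did not overlap for 27 of the 36 (75.0%), against 59.2% of all genes. Among the 30 tested genes of inhibitor families alone, 15 fell and 4 rose.

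The split of directions depended on the scale. With library totals 11 inhibitor genes were lower and 12 higher, 30.6% and 33.3% of those tested, where 9.00% and 50.5% of all genes were lower and higher, 59.5% in all. On log2(FPKM + 1) with limma 8 were lower and 17 higher, 22.2% and 47.2%, where 6.93% and 57.0% of all genes were, 63.9% in all. The inhibitor genes' median was 0.19 with library totals, below the 0.52 of all genes, and 0.41 on log2(FPKM + 1), above the 0.38 of all genes. Of the 24 changed genes, 12 kept their call and sign in all alternative fits in which they were tested, 8 lower and 4 higher. Among the 4 higher, Zm00001d029462 and Zm00001d022132 are described as related to the inter-alpha-trypsin inhibitor heavy chain and matched by words alone. The others were the cystatins Zm00001d049111 and Zm00001d038558.

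**Figure D1:**
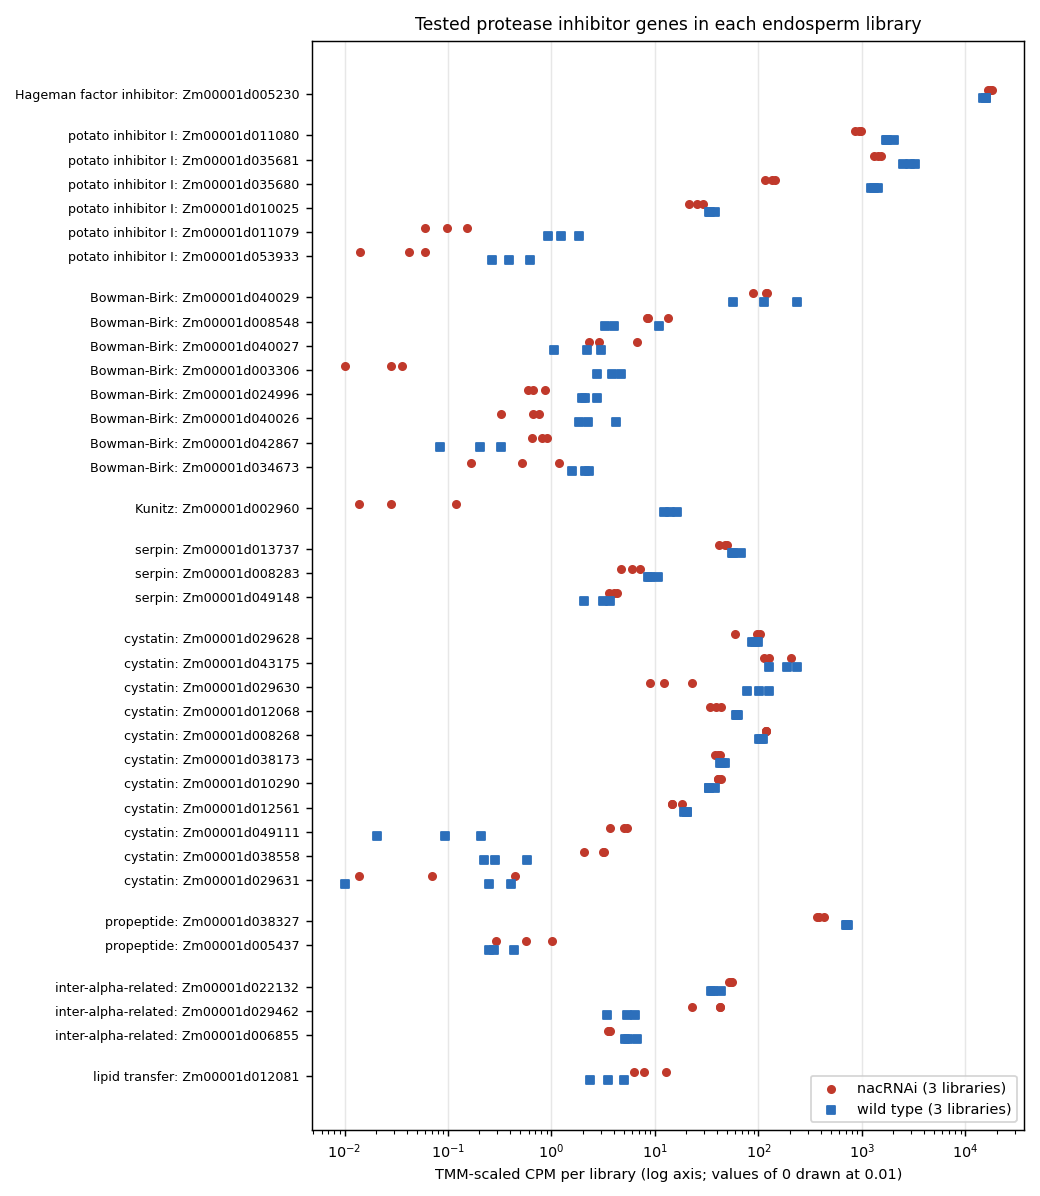
TMM-scaled CPM (log axis) of the 36 tested protease inhibitor genes in each library, ordered by family, with nacRNAi as circles and wild type as squares. The Hageman factor inhibitor stands at 16460 to 18068 CPM in nacRNAi and 14703 to 15956 CPM in wild type, and the Kunitz gene at 0.0139 to 0.121 CPM in nacRNAi against 12.3 to 16.2 CPM in wild type.

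The most abundant inhibitor transcript in either line was that of corn-activated Hageman factor inhibitor1 (Zm00001d005230, chromosome 2, 164746346 to 164746813, in the files' coordinates, whose build is not named). Its product is a kernel protein of the cereal trypsin and alpha-amylase inhibitor family, known for blocking trypsin and the activated Hageman factor of blood clotting. It had 17353, 18068 and 16460 CPM in nacRNAi and 14703, 15956 and 15785 CPM in wild type. Every nacRNAi library was above every wild-type library, by a small margin. The difference did not pass, at a log2 fold change of 0.16 (SE 0.08; edgeR adjusted p = 0.13).

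On scales tied to the whole library the same gene was clearly higher in nacRNAi. With library totals its log2 fold change was 0.68 (edgeR adjusted p = 0.000202). It took 2.07% ± 0.0699 of all counts in nacRNAi and 1.29% ± 0.0777 in wild type (SD, n = 3 each). In FPKM, which is set per length, it had 41085, 41660 and 38553 in nacRNAi and 17496, 18092 and 22096 in wild type, and ranked 2nd of all genes in nacRNAi and 7th in wild type. The log2(FPKM + 1) difference was 1.08 (limma adjusted p = 0.000347).

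FPKM and counts were not in step between the lines. For this gene the FPKM given per share of counts was 1.32 times higher in nacRNAi than in wild type. The same ratio was above 1 for 20 of the 22 inhibitor genes with at least 100 counts in every library, and its median was 1.17. It differed from gene to gene, from 0.689 for Zm00001d029462 to 1.56 for Zm00001d011080. What produced it was not tested.

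All the inhibitor genes together took 2.52%, 2.59% and 2.42% of the counts in nacRNAi and 1.85%, 1.97% and 2.00% in wild type. The 95% Wilson interval of the nacRNAi replicate 1 share ran from 2.513% to 2.520%, which covers counting error only, so depth was not what limited these shares. Without the Hageman factor inhibitor the order turned round, with 0.443% ± 0.0185 in nacRNAi and 0.646% ± 0.0324 in wild type (SD, n = 3 each).

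**Figure D2:**
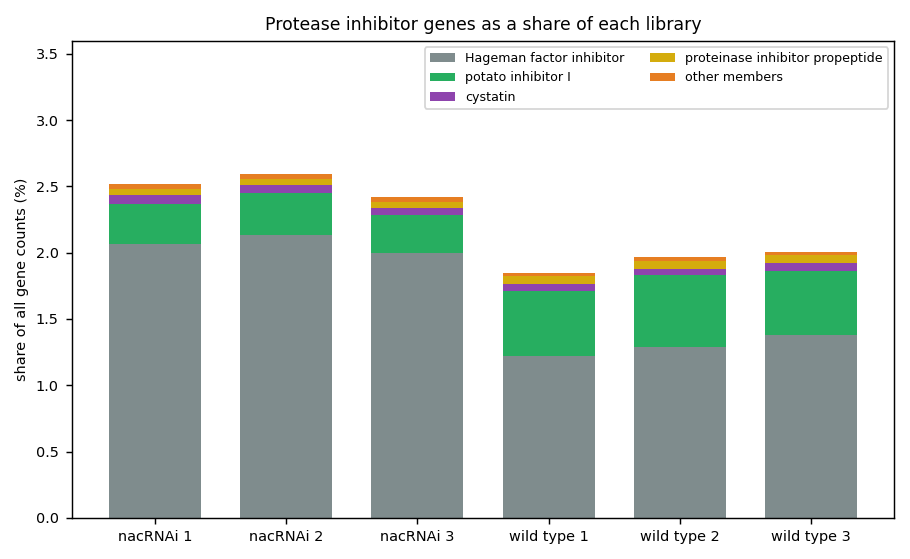
Share of all gene counts (%) taken by protease inhibitor genes in each library, stacked by family, with the nacRNAi libraries on the left. The Hageman factor inhibitor makes up most of each bar, at 2.00% to 2.14% in nacRNAi and 1.22% to 1.38% in wild type, and the potato inhibitor I segment is smaller in nacRNAi.

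Potato inhibitor I genes, which act on subtilisin- and chymotrypsin-like proteases, fell in all 6 cases tested (24.0% of all genes fell) and rose in none. Their median log2 fold change was -2.17. As a share of all counts they stood at 0.300% ± 0.0165 in nacRNAi and 0.507% ± 0.0320 in wild type (SD, n = 3 each). With library totals 5 of the 6 were still lower (83.3%, against 9.00% of all genes). On log2(FPKM + 1) 3 were lower (50.0%, against 6.93%) and 1 was higher (16.7%, against 57.0%).

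The steepest fall among abundant inhibitors was that of Zm00001d035680 (chromosome 6, 40863632 to 40864319), described as subtilisin-chymotrypsin inhibitor CI-1B. It had 116, 135 and 145 CPM in nacRNAi and 1232, 1435 and 1306 CPM in wild type. The libraries of the lines stood far apart, and the fall was 10.1-fold (log2 fold change -3.33, SE 0.11, edgeR adjusted p = 1.52e-06). Its neighbour Zm00001d035681 (chromosome 6, 40865498 to 40868507) lies 1178 bases away on the same strand, with no gene model between, and has the same description. It had 1442, 1541 and 1312 CPM in nacRNAi and 2908, 3256 and 2491 CPM in wild type, a 2.02-fold fall (log2 fold change -1.01, SE 0.11, edgeR adjusted p = 0.000247).

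Unequal change of these neighbours was also put as a ratio of the same counts within each library, which no scaling enters. Reads of Zm00001d035681 per read of Zm00001d035680 were 12.4, 11.4 and 9.07 in nacRNAi and 2.36, 2.27 and 1.91 in wild type. An exact permutation test (two-sided) gave p = 0.1, its lowest possible value with 3 libraries a line. The ratio was chosen after the values were seen. If the sequences of the 2 copies are close, reads could have been divided between them. Both other CI-1B genes of this cluster, Zm00001d035683 and Zm00001d035684, had at most 1 count in any library.

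A gene described only as a protease inhibitor, Zm00001d011080 (chromosome 8, 138416663 to 138416884), carries the serine protease inhibitor and wounding terms of this family. It had 933, 979 and 862 CPM in nacRNAi and 1719, 2020.0 and 1756 CPM in wild type (log2 fold change -0.99, SE 0.09, edgeR adjusted p = 8.78e-05). It was lower with library totals too (-0.47, edgeR adjusted p = 0.00122), while log2(FPKM + 1) gave 0.17 (limma adjusted p = 0.163). The next inhibitor gene on the chromosome, subtilisin-chymotrypsin inhibitor-2A (Zm00001d011079), lies 83492 bases away and was expressed at a far lower level, with 5, 11 and 7 counts in nacRNAi and 67, 89 and 45 counts in wild type. Its fall was 12.8-fold (log2 fold change -3.68, SE 0.51, edgeR adjusted p = 0.000732).

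CI-1C (Zm00001d010025) fell by less, with 28.9, 25.3 and 21.5 CPM in nacRNAi and 33.4, 34.1 and 38.2 CPM in wild type (log2 fold change -0.48, SE 0.11, edgeR adjusted p = 0.00991). Its direction turned with the scale. With library totals it was at 0.03 (edgeR adjusted p = 0.844). On log2(FPKM + 1) it was higher, by 0.45 (limma adjusted p = 0.0477). Zm00001d053933, described as a Glu S.griseus protease inhibitor, had 5, 1 and 3 counts in nacRNAi and 21, 30 and 13 in wild type. The ratio of its scaled counts was 10.7-fold lower in nacRNAi (log2 fold change -3.38, SE 0.69, edgeR adjusted p = 0.00502). Its 95% counting interval was 5.30 to 24.5, which leaves out the spread between libraries.

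Set against each other within a library, reads of the Hageman factor inhibitor per read of the potato inhibitor I genes were 6.89, 6.74 and 7.03 in nacRNAi and 2.49, 2.36 and 2.82 in wild type (p = 0.1 by the exact two-sided permutation test, its lowest possible value). This balance between the 2 most abundant inhibitor families was tight within each line, and it too was chosen after the values were seen.

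**Figure D3:**
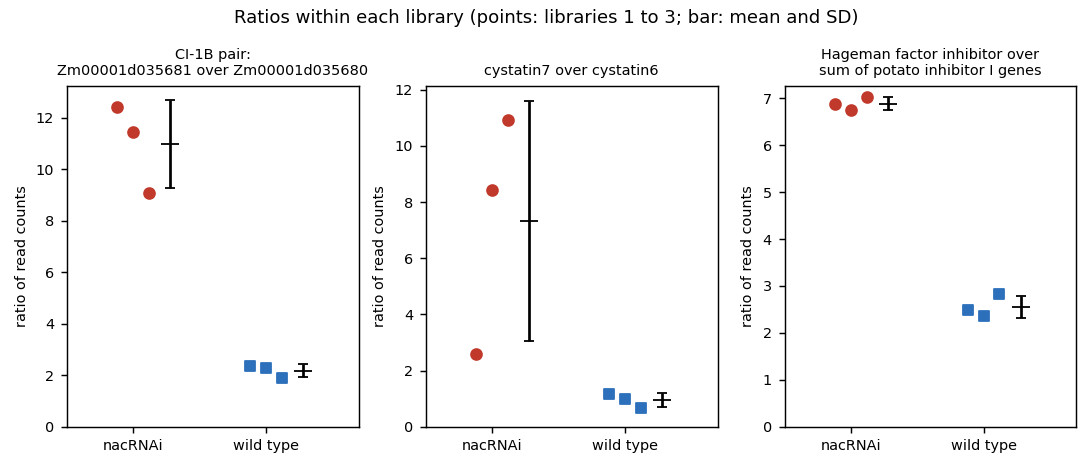
Ratios of read counts within each library for the CI-1B neighbours, for cystatin7 over cystatin6, and for the Hageman factor inhibitor over the summed potato inhibitor I genes. Points are libraries, and the bar beside them is the mean and SD of 3. In each panel the nacRNAi libraries lie above the wild-type libraries, with the widest spread for the cystatins, at 2.59 to 10.9 in nacRNAi.

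Kunitz trypsin inhibitor 1 (Zm00001d002960, chromosome 2, 28153170 to 28153838) was almost lost. It is a serine protease inhibitor of the soybean trypsin inhibitor family and carries an alpha-amylase inhibitor term. It had 10, 2 and 1 counts in nacRNAi and 753, 590 and 789 counts in wild type. In CPM this was 0.121, 0.0280 and 0.0139 against 14.0, 12.3 and 16.2. The scaled counts were 247-fold lower in nacRNAi, with a 95% counting interval of 144 to 464 (log2 fold change -7.91, SE 0.45, edgeR adjusted p = 2.65e-05). Without nacRNAi replicate 1, the library with most of the remaining reads, the log2 fold change was -9.26 (edgeR adjusted p = 1.07e-05).

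Bowman-Birk genes, small disulfide-rich inhibitors of trypsin-like proteases, changed in 4 of 8 tested, 50.0% against 47.3% of all genes. Of the 8 tested 3 fell (37.5%, against 24.0%) and 1 rose (12.5%, against 23.2%), and the median log2 fold change was -0.99. The bran trypsin inhibitor gene Zm00001d003306 (chromosome 2, 39644137 to 39644676) was down to 3, 0 and 2 counts in nacRNAi against 252, 184 and 135 counts in wild type. Its scaled counts were 172-fold lower, with a 95% counting interval of 73.2 to 531 (log2 fold change -7.30, SE 0.57, edgeR adjusted p = 4.94e-05). This gene and the Kunitz gene are the inhibitors that nearly disappeared from nacRNAi endosperm.

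The other Bowman-Birk changes were at low levels. Zm00001d024996 had 0.868, 0.657 and 0.600 CPM in nacRNAi and 2.78, 1.96 and 2.12 CPM in wild type (log2 fold change -1.68, edgeR adjusted p = 0.00184). Zm00001d040026 had 0.325, 0.755 and 0.669 CPM in nacRNAi and 1.84, 4.25 and 2.26 CPM in wild type (log2 fold change -2.25, edgeR adjusted p = 0.00409). Both fell without overlap between the lines.

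The member that rose was bowman-birk inhibitor1 (Zm00001d042867), with 67, 65 and 46 counts in nacRNAi and 11, 4 and 16 in wild type (log2 fold change 1.92, edgeR adjusted p = 0.0181). That call was lost without nacRNAi replicate 2 (edgeR adjusted p = 0.0669) and without wild-type replicate 1 (edgeR adjusted p = 0.0532). Zm00001d034673 stood at -1.67 (edgeR adjusted p = 0.0587) and passed as lower without nacRNAi replicate 1 (-2.53, edgeR adjusted p = 0.00898) and with DESeq2 (-1.68, adjusted p = 0.0125).

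Genes described as the wound-induced inhibitor WIP1, a Bowman-Birk protein known to rise in wounded maize seedlings, did not pass, and their libraries spread widely within a line. Zm00001d040029 had 88.3, 117 and 121 CPM in nacRNAi and 112, 234 and 56.9 CPM in wild type (log2 fold change -0.30, SE 0.52, edgeR adjusted p = 0.666). Its sign turned without wild-type replicate 2, at 0.36 (edgeR adjusted p = 0.44). Zm00001d008548 had 13.4, 8.39 and 8.58 CPM in nacRNAi and 3.26, 11.0 and 4.01 CPM in wild type (log2 fold change 0.73, edgeR adjusted p = 0.283). It passed as higher when wild-type replicate 2 was left out (1.47, edgeR adjusted p = 0.00381). It also passed on log2(FPKM + 1), at 1.40 (limma adjusted p = 0.0179). Wild-type replicate 2 was the highest wild-type library for both genes. The third, Zm00001d040027, had 6.65, 2.32 and 2.86 CPM in nacRNAi and 2.18, 1.06 and 3.04 CPM in wild type, and its log2 fold change of 0.91 (edgeR adjusted p = 0.199) was 0.31 without nacRNAi replicate 1 (edgeR adjusted p = 0.601).

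Of 3 serpins tested 2 fell, by little (66.7%, against 24.0% of all genes), and the other did not pass. Serpin-Z1 at Zm00001d013737 had 47.7, 49.3 and 42.0 CPM in nacRNAi and 55.7, 67.3 and 57.3 CPM in wild type (log2 fold change -0.37, edgeR adjusted p = 0.0131). Serpin-Z1 at Zm00001d008283 had 7.12, 6.03 and 4.66 CPM in nacRNAi and 8.93, 8.52 and 10.8 CPM in wild type (-0.66, edgeR adjusted p = 0.0164), a call lost without nacRNAi replicate 2 (edgeR adjusted p = 0.0508) and without wild-type replicate 3 (0.0575). Neither fall held on the other scales, where Zm00001d013737 was at 0.14 with library totals (edgeR adjusted p = 0.184). Its log2(FPKM + 1) was higher, by 0.31 (limma adjusted p = 0.0225). The third serpin tested, Zm00001d049148, averaged 3.99 ± 0.382 CPM in nacRNAi and 2.96 ± 0.838 CPM in wild type (SD, n = 3 each; edgeR adjusted p = 0.17).

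**Figure D4:**
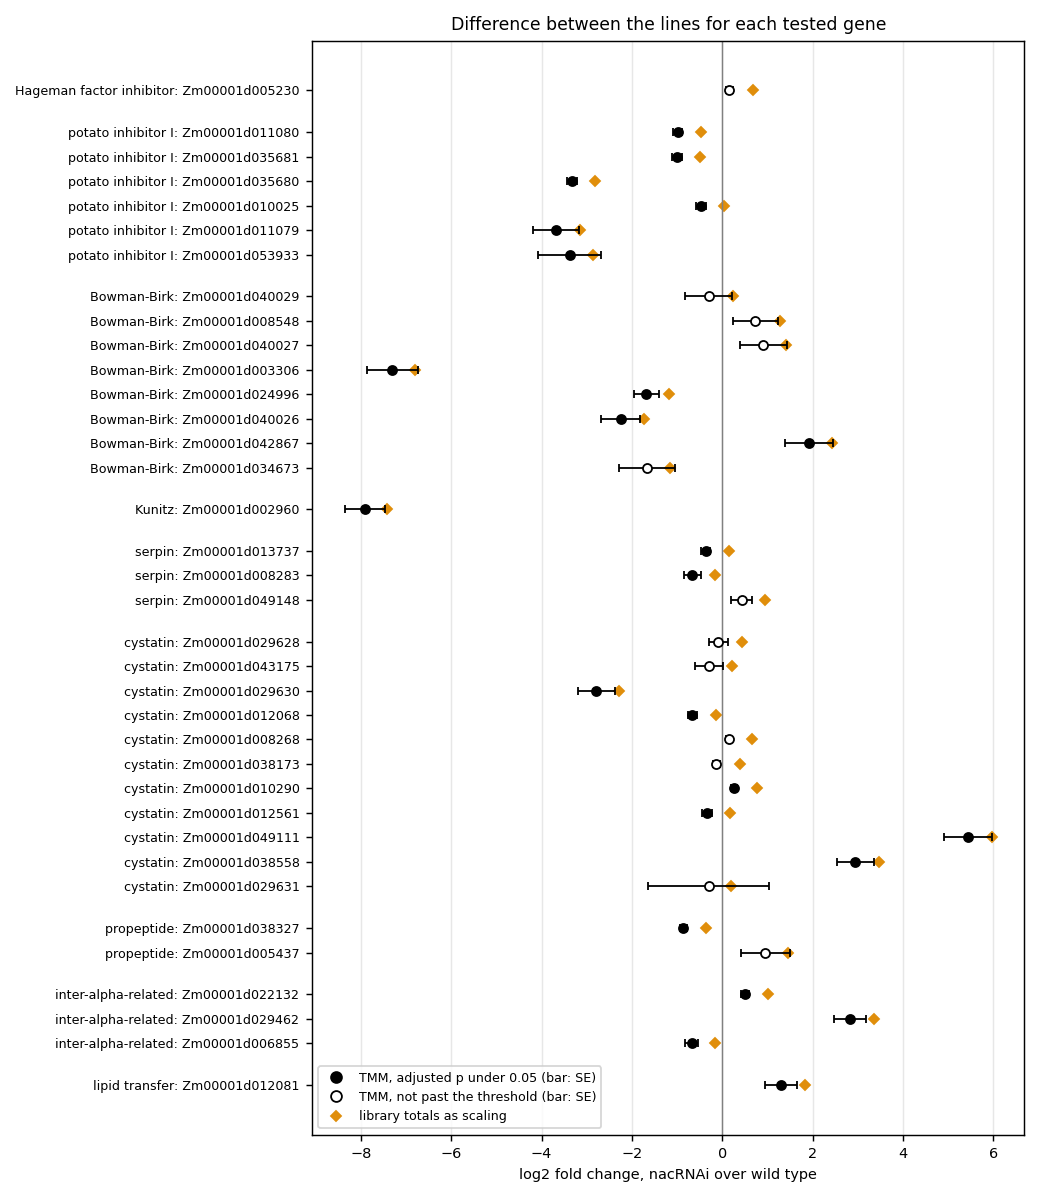
Log2 fold change of nacRNAi over wild type for each tested gene. Circles are TMM-scaled values with their approximate SE, filled where the adjusted p is under 0.05, and diamonds are the values with library totals. All 6 potato inhibitor I genes lie left of 0 with TMM, the Kunitz gene and Zm00001d003306 lie furthest left, and Zm00001d049111 lies furthest right.

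Cystatins, the inhibitors of papain-like cysteine proteases, changed in shares near those of all genes. Of 11 tested 3 rose (27.3%, against 23.2% of all genes), 3 fell (27.3%, against 24.0%) and 5 did not pass, with a median log2 fold change of -0.13. With library totals 5 were higher (45.5%, against 50.5% of all genes) and 1 lower (9.09%, against 9.00%). On log2(FPKM + 1) 7 were higher (63.6%, against 57.0% of all genes) and 1 lower (9.09%, against 6.93%). The gene that was lower on all these scales was cystatin6.

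Cystatin6 (Zm00001d029630, chromosome 1, 80665246 to 80665596) had 23.0, 12.3 and 8.95 CPM in nacRNAi and 78.1, 101 and 128 CPM in wild type. The lowest wild-type library was above the highest nacRNAi library, and the fall was 6.94-fold (log2 fold change -2.79, SE 0.41, edgeR adjusted p = 0.00319). Cystatin7 (Zm00001d029628) lies 63696 bases away, with 1 gene model between, and had 59.5, 103 and 97.9 CPM in nacRNAi and 92.0, 98.9 and 86.2 CPM in wild type (-0.09, edgeR adjusted p = 0.758). The lines overlapped for cystatin7, and its sign turned without nacRNAi replicate 1, at 0.13 (edgeR adjusted p = 0.255). Reads of cystatin7 per read of cystatin6 were 2.59, 8.44 and 10.9 in nacRNAi and 1.18, 0.975 and 0.675 in wild type (p = 0.1 by the exact two-sided permutation test, its lowest possible value), again a ratio chosen after the values were seen. Reads of close copies in this cluster could have been divided between them.

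Cysteine proteinase inhibitor 5 (Zm00001d049111, chromosome 4, 16423175 to 16423699) made the largest rise among the inhibitor genes tested. It had 413, 388 and 266 counts in nacRNAi and 5, 10 and 1 counts in wild type. The scaled counts were 44.3-fold higher in nacRNAi, with a 95% counting interval of 27.2 to 77.8 (log2 fold change 5.44, SE 0.53, edgeR adjusted p = 0.000178). Without wild-type replicate 2 the log2 fold change was 6.29 (edgeR adjusted p = 0.000108). The level reached in nacRNAi was still modest, at 4.98, 5.42 and 3.71 CPM. Its neighbour 27284 bases away, Zm00001d049110 with the same description, had 5, 3 and 0 counts in nacRNAi and 0 in all wild-type libraries, too few for a test.

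Cystatin3 (Zm00001d038558) had 3.15, 2.04 and 3.19 CPM in nacRNAi and 0.224, 0.583 and 0.288 CPM in wild type, a 7.66-fold rise (log2 fold change 2.94, SE 0.41, edgeR adjusted p = 0.000765). It overlaps Zm00001d038557, described as nuclear factor Y subunit C11, on the opposite strand. That gene had 66.2, 67.9 and 73.4 CPM in nacRNAi and 26.8, 24.1 and 26.7 CPM in wild type (1.42, edgeR adjusted p = 9.12e-06). The sources used here do not say that counting used strand, so reads of these 2 genes in the overlap cannot be told apart.

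The remaining cystatin changes were small with TMM. Zm00001d012068, a putative cystatin, had 43.8, 34.3 and 39.2 CPM in nacRNAi and 60.8, 62.8 and 61.5 CPM in wild type (log2 fold change -0.66, edgeR adjusted p = 0.00071), but was higher on log2(FPKM + 1) (0.46, limma adjusted p = 0.00892). Cystatin2 (Zm00001d012561) averaged 15.9 ± 2.16 CPM in nacRNAi and 20.0 ± 0.873 CPM in wild type (SD, n = 3 each; log2 fold change -0.33, edgeR adjusted p = 0.0374). Cysteine proteinase inhibitor 6 (Zm00001d010290) averaged 41.7 ± 1.86 CPM in nacRNAi and 34.9 ± 2.41 CPM in wild type (0.26, edgeR adjusted p = 0.0229). With TMM the calls of cystatin2 and cysteine proteinase inhibitor 6 were fragile when a library was left out. That of cystatin2 was lost without nacRNAi replicate 2 or 3 and without wild-type replicate 1 or 3 (edgeR adjusted p = 0.128, 0.118, 0.101 and 0.0943). That of cysteine proteinase inhibitor 6 was lost without nacRNAi replicate 1 or 2 and without wild-type replicate 2 or 3 (edgeR adjusted p = 0.0729, 0.0549, 0.0684 and 0.069).

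Cystatin4 (Zm00001d008268) varied little, with 118, 118 and 117 CPM in nacRNAi and 102, 112 and 107 CPM in wild type. It did not pass with TMM (log2 fold change 0.14, edgeR adjusted p = 0.0794) and was higher with library totals (0.66, edgeR adjusted p = 6.53e-05). Zm00001d038173, a putative cystatin, averaged 40.8 ± 2.27 CPM in nacRNAi and 44.7 ± 2.76 CPM in wild type (SD, n = 3 each; edgeR adjusted p = 0.181) and was also higher with library totals (0.39, edgeR adjusted p = 0.00146).

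Levels of 2 cystatins were set beside markers of the basal transfer layer, the tissue that loads sugar at the base of the endosperm, a comparison chosen after the values were seen. Cystatin-1 (Zm00001d043175) had 205, 127 and 113 CPM in nacRNAi and 234, 128 and 188 CPM in wild type (log2 fold change -0.30, edgeR adjusted p = 0.47). Cystatin8 (Zm00001d029631) had 37, 5 and 1 counts in nacRNAi and 22, 0 and 12 counts in wild type. The marker basal endosperm transfer layer9 (Zm00001d041822) had 9.67, 0.489 and 0.488 CPM in nacRNAi and 8.05, 0.708 and 5.24 CPM in wild type. Each of these 3 genes was higher in nacRNAi replicate 1 and wild-type replicates 1 and 3 than in the other libraries, and so were 4 of the 5 tested markers. The exception was the most abundant tested marker, maternally expressed gene4 (Zm00001d019541), with 13.0, 17.1 and 14.5 CPM in nacRNAi and 51.0, 24.4 and 58.5 CPM in wild type.

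Over the whole basal transfer layer list, 5 of 11 genes were tested. Of these 1 fell (20.0%, against 24.0% of all genes), maternally expressed gene4 (-1.59, edgeR adjusted p = 0.0115). The summed level of the list was 15.1 to 24.8 CPM in nacRNAi and 25.9 to 66.2 CPM in wild type. Most of it was maternally expressed gene4 in every library. The other 4 tested genes did not pass, and the lines overlapped for each of them. In that list 1 gene was at 0 in all libraries. Cystatin6 was also highest in nacRNAi replicate 1 among the nacRNAi libraries, but in wild type it was at 101 CPM in replicate 2, where the transfer layer markers were lowest. What part the tissue sampled had in these values was not tested.

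**Figure D5:**
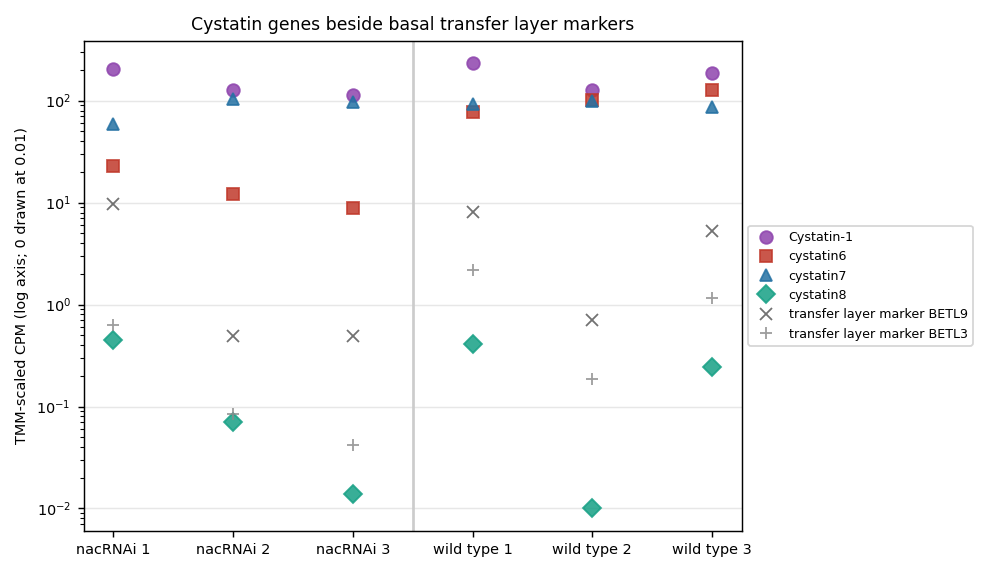
TMM-scaled CPM (log axis) of 4 cystatin genes and 2 basal transfer layer markers in each library, nacRNAi on the left. Cystatin-1, cystatin8 and the marker basal endosperm transfer layer9 are high in nacRNAi replicate 1 and wild-type replicates 1 and 3, while cystatin6 is lower in all nacRNAi libraries than in any wild-type library.

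Genes listed for other kernel parts by words of their descriptions were compared between the lines as well. Embryo and oil body genes summed to 1470.2 to 1807 CPM in nacRNAi and 2431 to 2607 CPM in wild type. As a share of all counts the lines overlapped, at 0.2152%, 0.1779% and 0.1784% in nacRNAi and 0.2025%, 0.2101% and 0.212% in wild type. Of 42 tested of 109 listed, 25 fell (59.5%, against 24.0% of all genes) and 3 rose (7.14%, against 23.2%). Those that rose were an oleosin Zm-II (Zm00001d013494, 0.95) and the late embryogenesis abundant genes Zm00001d017021 (1.51) and Zm00001d034003 (1.24). Globulin-1 (Zm00001d033447) was at 0.52 and did not pass (edgeR adjusted p = 0.0596). The list also holds a late embryogenesis abundant hydroxyproline-rich glycoprotein family, and whether it marks the embryo was not tested. Of the embryo and oil body list 48 genes were at 0 in all libraries. Aleurone genes summed to 102 to 109 CPM in nacRNAi and 118 to 136 CPM in wild type, and 2 of 3 tested fell (66.7%, against 24.0%). Embryo surrounding region genes, 4 in the list, were at 0 in nacRNAi replicates 2 and 3 and at most 1.66 CPM elsewhere. Their part in the falls of the inhibitor genes was not tested. With library totals 11 of the embryo and oil body genes were lower (26.2%, against 9.00% of all genes) and 7 higher (16.7%, against 50.5%), and all 3 aleurone genes were higher.

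Genes that matched by words alone included 1 abundant transcript. Zm00001d038327 (chromosome 6, 154610724 to 154620497), described as a proteinase inhibitor propeptide, carries a serine endopeptidase term, that of a protease. It had 433, 388 and 365 CPM in nacRNAi and 696, 725 and 735 CPM in wild type (log2 fold change -0.86, SE 0.08, edgeR adjusted p = 8.84e-05). Library totals gave a smaller fall (-0.35, edgeR adjusted p = 0.00706). No difference passed on log2(FPKM + 1) (-0.03, limma adjusted p = 0.805). The other propeptide gene, Zm00001d005437, had at most 1.00 CPM (0.95, edgeR adjusted p = 0.188) and passed as higher with library totals (1.46, edgeR adjusted p = 0.0499).

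All 3 genes related to the inter-alpha-trypsin inhibitor heavy chain changed, where 47.3% of all tested genes did. Zm00001d029462 (chromosome 1, 71833704 to 71849570) had 22.8, 43.0 and 42.5 CPM in nacRNAi and 6.48, 5.31 and 3.41 CPM in wild type, a 7.11-fold rise (log2 fold change 2.83, SE 0.35, edgeR adjusted p = 0.00122). Zm00001d022132 averaged 54.1 ± 1.87 CPM in nacRNAi and 38.3 ± 4.63 CPM in wild type (SD, n = 3 each; 0.50, edgeR adjusted p = 0.00287). Zm00001d006855 averaged 3.59 ± 0.0514 CPM in nacRNAi and 5.77 ± 0.793 CPM in wild type (-0.68, edgeR adjusted p = 0.00681), a fall that did not hold with library totals (-0.17, edgeR adjusted p = 0.407).

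Of these 3, Zm00001d029462 and Zm00001d006855 each overlap another gene model on the opposite strand at 1 end. Those partners were at most 2.58 CPM in any library. The partner of Zm00001d029462, Zm00001d029461, fell (log2 fold change -1.27, edgeR adjusted p = 0.0211). That of Zm00001d006855, Zm00001d006854, averaged 0.864 CPM in nacRNAi and 1.35 CPM in wild type. Its log2 fold change of -0.64 (edgeR adjusted p = 0.174) was near the -0.68 of Zm00001d006855. What part reads of the overlaps had in these values was not tested. The lipid transfer family gene Zm00001d012081, described as PVR3-like, had 12.8, 6.24 and 7.89 CPM in nacRNAi and 5.03, 2.35 and 3.49 CPM in wild type (log2 fold change 1.30, edgeR adjusted p = 0.0243). This rise no longer passed when wild-type replicate 2 or 3 was left out (edgeR adjusted p = 0.0562 or 0.0756).

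Inhibitor genes often lay beside each other. There were 18 pairs of successive members less than 500 kb apart on a chromosome, 10 of them with no gene model between. Both members were tested in 8 of these pairs, and differences between neighbours' changes were not tested across pairs. Beside the CI-1B and cystatin clusters, Zm00001d040026 fell while the WIP1 gene Zm00001d040027, 6285 bases away, did not pass, and Zm00001d011079 fell 12.8-fold where Zm00001d011080 fell 1.98-fold.

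Protease genes, listed by words of their descriptions for kinds that such inhibitors may act on, moved more often up than down. Of 63 tested of 139 genes described as papain-like, legumain, subtilisin-like, other serine or metacaspase proteases, 22 rose (34.9%, against 23.2% of all genes) and 10 fell (15.9%, against 24.0%), with a median log2 fold change of 0.14. The vacuolar processing enzyme beta-isozyme (Zm00001d002824), a legumain that trims seed proteins in the vacuole, fell 2.65-fold, with 73.6, 77.9 and 68.6 CPM in nacRNAi and 214, 177 and 193 CPM in wild type (log2 fold change -1.41, SE 0.09, edgeR adjusted p = 1.75e-05). A metacaspase-like gene (Zm00001d047211) rose to 40.1, 23.3 and 14.8 CPM in nacRNAi, against 1.34, 1.60 and 1.36 CPM in wild type (4.18, SE 0.42, edgeR adjusted p = 0.000524). Subtilisin-like protease SBT2.6 (Zm00001d036483) rose (log2 fold change 0.86, edgeR adjusted p = 0.000252), as did a subtilase gene (Zm00001d012655, 1.12, edgeR adjusted p = 0.0004). With library totals 33 of these genes were higher (52.4%, against 50.5% of all genes) and 3 lower (4.76%, against 9.00%). The list holds both enzymes that inhibitors of this kind bind and relatives for which that is not known.

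Other kernel defence proteins changed in both directions, in 26 of 46 tested genes of 97, with 10 higher (21.7%, against 23.2% of all genes) and 16 lower (34.8%, against 24.0%) and a median log2 fold change of -0.41. With library totals 15 were higher (32.6%, against 50.5%) and 9 lower (19.6%, against 9.00%). Ribosome-inactivating protein 3 (Zm00001d010371), an enzyme that disables ribosomes, had 360, 356 and 337 CPM in nacRNAi and 915, 1125 and 778 CPM in wild type (log2 fold change -1.42, edgeR adjusted p = 0.00013). Chitinase B1 (Zm00001d025753), which cuts the chitin of fungal walls, rose to 1273, 838 and 1119 CPM in nacRNAi, against 399, 441 and 362 CPM in wild type (1.43, edgeR adjusted p = 0.000455). A thaumatin-type gene fell (Zm00001d032972, -1.47, edgeR adjusted p = 0.000104) and another rose (Zm00001d030694, 0.61, edgeR adjusted p = 0.000189).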

How the data were processed

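The authors deposited raw read counts per gene and FPKM per gene for 6 libraries, per the file headers. FPKM are by their name set per length and library, but how the authors computed them is not given in the sources used here. For aligner, counter, genome build, annotation and strandedness the entry is: not given in the sources used here. Counts were filtered (filterByExpr), scaled by TMM and tested across all genes with the edgeR 4.0.16 quasi-likelihood test (robust, line as the only term) in R 4.3.3, with Benjamini-Hochberg adjustment and 0.05 as threshold. SE is the absolute log2 fold change over the square root of F. FPKM were tested with limma 3.58.1 on log2(FPKM + 1), a scale that understates changes of low genes. DESeq2 1.42.0 was an alternative. Counting intervals of ratios are exact binomial on counts pooled over the libraries of a line, so they leave out the spread between libraries. Fits were tested on data simulated with the dispersions and library scaling that edgeR estimated, which may favour edgeR. There a larger share of the calls was false with DESeq2 than with edgeR. The simulation changed few genes, up and down alike, so this share does not carry over to data where 47.3% changed. It does not bear on the choice of scale either. The members and lists were chosen with earlier results of these data known. Values are given for members among the 12 highest by FPKM, changed at least 2-fold at 5 CPM or more, or among the 5 smallest adjusted p. The other tested members were named after their values were seen, as every member is accounted for. Of the protease and defence lists, up to 4 genes each with the smallest adjusted p and at least 5 CPM are named. The word thionin also matched methionine and cystathionine genes, which were removed from the defence list.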

Additional observations from a re-analysis of the deposited data

How the results depend on the processing

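Of 36 inhibitor genes tested, the directions and calls stood with DESeq2 size factors, with TMM computed without zein genes, without a filter and with the replicate number as a block. The replicate numbers did not pair the libraries (correlations of deviations 0.0113, -0.0492 and -0.103), and the block gave 17 lower and 7 higher and 9273 changed genes in all, against 10519. DESeq2 gave 18 lower and 7 higher. Leaving out each library in turn gave 15 to 18 lower and 5 to 7 higher inhibitor genes, 8525 to 9714 changed genes, 25 to 31 changed proteases, 20 to 25 changed defence genes, and a difference in the inhibitor genes' share of counts (nacRNAi minus wild type) of 0.524 to 0.615 percentage points, against 0.57.

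Library totals gave 12 higher and 11 lower, log2(FPKM + 1) gave 17 and 8, and log2(FPKM + 0.1) gave 17 and 8. An adjusted p under 0.01 left 4 higher and 14 lower, 6992 genes and 21 proteases. A 2-fold minimum left 9 lower, 3926 genes and 14 proteases. Of the genes of inhibitor families 4 were higher (13.3%, against 23.2% of all genes), a choice made after seeing the data. So was the first form of the defence list, where 72 of 142 tested changed (50.7%, against 47.3% of all genes). As a share of summed FPKM the difference was 3.47 percentage points.

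Directions turned as follows, the cause not tested. With library totals the log2 fold changes were 0.03 for Zm00001d010025, 0.18 for Zm00001d012561, 0.14 for Zm00001d013737, 0.43 for Zm00001d029628, 0.20 for Zm00001d029631, 0.39 for Zm00001d038173, 0.24 for Zm00001d040029 and 0.21 for Zm00001d043175. On log2(FPKM + 1) and log2(FPKM + 0.1) they were 0.02 and 0.04 for Zm00001d006855, 0.21 and 0.23 for Zm00001d008283, 0.45 and 0.46 for Zm00001d010025, 0.17 and 0.17 for Zm00001d011080, 0.46 and 0.46 for Zm00001d012068, 0.30 and 0.31 for Zm00001d012561, 0.31 and 0.32 for Zm00001d013737, 0.83 and 0.83 for Zm00001d029628, 0.65 and 0.66 for Zm00001d038173, 0.67 and 0.68 for Zm00001d040029, and 0.38 and 0.38 for Zm00001d043175. Zm00001d029631 was at 0.12 on log2(FPKM + 1). With 1 library left out, Zm00001d029631 ran from -2.34 to 0.53, Zm00001d029628 from -0.23 to 0.13 and Zm00001d040029 from -0.66 to 0.36. With 3 libraries a line, exact permutation tests cannot go below 0.1. Genes under 10 counts in a line are limited by depth.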
